A study of Mus musculus with 12 samples.

Results

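Peripheral myelin is made by Schwann cells, and central myelin by oligodendrocytes. The 9 genes described here, Pmp22, Pmp2, Prx, Egr2, Drp2, Ncmap, Fbxo2, Litaf and Scn7a, were taken from a fixed list of genes linked to Schwann cells and the spinal roots, and several of them are mutated in demyelinating forms of Charcot-Marie-Tooth disease (CMT). They were matched by mouse symbol to 9 of the 49548 Ensembl genes counted in every library, and the matching rule used no measured value. RNA was sequenced from the lumbar spinal cord of 8 MFN2 mice and 4 WT mice, 1 library per mouse, to look for transcript changes that could mark disease in a CMT2A model. MFN2 mice were MitoCharc1 animals, labelled CMT2A and carrying Tg(Eno2-MFN2*R94Q)L51Ugfm/J on a B6;D2 background, in which the neuron-specific rat Eno2 promoter drives the human R94Q transgene. WT mice are labelled C57BL/6, while the study's methods speak of littermates as controls. All mice were 30 days old and none was treated. Where the strain differs as the labels say, the effects of the transgene and of the strain background cannot be told apart. The promoter is not one of Schwann cells. Total counts were 19359454 to 26738930 in MFN2 mice and 19453238 to 23564568 in WT mice.

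Where a root meets the cord, oligodendrocyte myelin gives way to Schwann cell myelin, so dissected cord can carry Schwann cell transcripts through root stumps left on it. Myelinating Schwann cells switch on their myelin genes under the zinc-finger factor Egr2, together with Sox10. Among the products are the membrane protein Pmp22, the fatty acid binding protein Pmp2, and the scaffold Prx, which links Drp2 and the dystroglycan complex to the actin cytoskeleton beneath the Schwann cell surface.

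Libraries 43 and 73, both from MFN2 mice, stood apart from the other 10 in Prx and in some, not all, of the Schwann cell transcripts read. Prx was at 35.5 and 50.4 CPM (the count relative to library size, scaled by TMM) there, against 1.22 CPM or less elsewhere. They were the 2 highest libraries for 4 of the 9 genes. Library 43 also stood apart in its tissue markers. The summed level of 8 forebrain neuron genes was 4685 CPM there and 109 to 207 CPM in the other 11 libraries, with Camk2a the most abundant. Hoxc10, a lumbar level homeobox gene, was at 4.08 CPM in library 43, at 23.5 CPM in library 73 and between 14.8 and 30.5 CPM in the other 10. Chat, which marks cholinergic neurons such as motor neurons, was at 5.21 CPM in library 43 and between 16.4 and 35.3 CPM in those 10. Library 43 therefore goes against its label in these markers, while library 73 lies within the range of the others in both Hoxc10 and Chat. Comparisons between groups are given with and without these libraries where they move the result.

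The libraries are numbered 41 to 47 and 72 to 76. The first run of numbers holds the 4 WT libraries (44 to 47) and 3 MFN2 libraries (41 to 43), and the second holds the other 5 MFN2 libraries. The second run has no WT library, so there a difference of genotype and one of number run cannot be told apart.

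On GRCm38, with the gene models of GENCODE M21, Pmp22 (ENSMUSG00000018217) lies at chr11:63128982-63159547 on the plus strand and Prx (ENSMUSG00000053198) at chr7:27499324-27520214 on the plus strand. Egr2 (ENSMUSG00000037868) lies at chr10:67535475-67542188 and Drp2 (ENSMUSG00000000223) at chrX:134404551-134456573, both on the plus strand. Ncmap (ENSMUSG00000043924) lies at chr4:135369576-135398227 on the minus strand, and Fbxo2 (ENSMUSG00000041556) at chr4:148160621-148166424 on the plus strand. Litaf (ENSMUSG00000022500) lies at chr16:10959275-11066157, Scn7a (ENSMUSG00000034810) at chr2:66673425-66784914 and Pmp2 (ENSMUSG00000052468) at chr3:10179851-10183929, all on the minus strand. All are protein-coding, and counts are given per gene, not per transcript. Whether they hold reads from introns is not given in the sources used here. Exons of Pmp2 share 1224 of 1408 bases with the same-strand gene Gm37389, which was at 0 counts in every library, so the Pmp2 count is uncertain. Prx shares 300 exon bases with the antisense gene Gm15541 (1 to 9 counts per library), and Litaf shares 95 with Snn on the opposite strand (2622 to 4399 counts). The library kit named in the study's methods keeps the strand, but whether the counting used it is not given in the sources used here, so the counts of genes that overlap on opposite strands are uncertain.

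Promoters of the 9 genes were read from RefSeq (GRCm38.p6) as 300 bases, 250 before each start site and 50 from it onward. Of the 9 genes, 7 matched, with 15 start sites. The core of the Egr family element, GCGTGGG, or its reverse complement CCCACGC, was searched on both strands, since Egr2 is itself one of the 9 genes. It was present in 5.04% of 32851 mouse promoters of this length and in 3 of the 15 promoters read here, those of Prx, Ncmap (the second of its 2 start sites) and Scn7a. The Sox core ACAAAG, or CTTTGT, was present in 18.7% of promoters and in 1 of the 15, that of Litaf. The promoters holding the Egr letters are shown so that the position of the letters can be seen. Prx, Ncmap and Scn7a had their highest level in library 73, as did Pmp22, whose promoters lack the letters. The first 2 of the 4 Pmp22 start sites are shown because Pmp22 transcripts start at alternative first exons, which counts per gene do not separate. Capitals mark GCGTGGG or CCCACGC, and each sequence is written 5′ to 3′ on the strand of its gene.
Prx, chr7:27499074-27499373, plus strand: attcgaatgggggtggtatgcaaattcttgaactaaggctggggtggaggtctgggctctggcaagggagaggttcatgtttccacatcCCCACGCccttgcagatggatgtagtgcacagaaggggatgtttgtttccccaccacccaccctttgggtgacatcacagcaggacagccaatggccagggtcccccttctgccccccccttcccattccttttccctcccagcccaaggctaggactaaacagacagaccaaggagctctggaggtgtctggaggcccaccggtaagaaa
Ncmap, second start site, chr4:135385623-135385922, minus strand: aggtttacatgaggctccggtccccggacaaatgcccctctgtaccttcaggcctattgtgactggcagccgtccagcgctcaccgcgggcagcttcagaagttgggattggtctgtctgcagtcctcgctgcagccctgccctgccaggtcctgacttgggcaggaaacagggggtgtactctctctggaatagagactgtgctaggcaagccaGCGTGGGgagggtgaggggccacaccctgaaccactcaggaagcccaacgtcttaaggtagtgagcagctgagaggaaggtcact
Scn7a, chr2:66784861-66785160, minus strand: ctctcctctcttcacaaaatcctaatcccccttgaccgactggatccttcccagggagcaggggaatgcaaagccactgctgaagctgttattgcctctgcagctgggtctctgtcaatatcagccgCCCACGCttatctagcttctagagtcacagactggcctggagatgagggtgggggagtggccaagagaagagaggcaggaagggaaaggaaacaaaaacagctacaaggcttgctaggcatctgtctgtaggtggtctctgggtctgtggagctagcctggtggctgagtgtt
Pmp22, first start site, chr11:63128732-63129031, plus strand: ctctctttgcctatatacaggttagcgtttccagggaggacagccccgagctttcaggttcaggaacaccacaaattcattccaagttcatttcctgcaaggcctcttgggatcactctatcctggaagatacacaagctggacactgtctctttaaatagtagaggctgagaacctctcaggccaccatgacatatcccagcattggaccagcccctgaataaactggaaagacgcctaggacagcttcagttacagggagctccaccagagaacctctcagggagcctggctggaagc
Pmp22, second start site, chr11:63131207-63131506, plus strand: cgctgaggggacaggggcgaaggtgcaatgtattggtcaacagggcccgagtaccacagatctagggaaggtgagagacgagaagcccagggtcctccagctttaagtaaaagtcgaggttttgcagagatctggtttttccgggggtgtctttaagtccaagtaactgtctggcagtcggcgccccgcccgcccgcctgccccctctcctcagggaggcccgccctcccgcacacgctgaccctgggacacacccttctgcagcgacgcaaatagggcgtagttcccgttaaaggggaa
The letters lie on the opposite strand at base -161 from the start site in Prx and -123 in Scn7a, and on the same strand at -35 in Ncmap. The Pmp22 promoters shown hold neither set of letters. A match here is a description of the sequence and says nothing of binding in these mice.

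In the cord of WT mice, the 9 genes spanned a wide range of levels. Levels per length were compared as RPKM, the CPM divided by the exon length of the gene in kilobases. This assumes reads along the whole transcript, as the named kit gives, while a heading of the study's methods speaks of 3′-mRNA. If reads came only from the 3′ ends, the order by RPKM may not hold. By CPM, Scn7a (3.77 to 4.71 in WT mice) was above Ncmap (1.28 to 2.07). Fbxo2 was highest at 56.0 ± 7.23 RPKM (SD, n = 4), followed by Pmp22 at 27.1 ± 6.07, Litaf at 10.5 ± 1.5 and Drp2 at 4.82 ± 0.0668 RPKM. Ncmap and Scn7a followed at 0.746 ± 0.145 and 0.573 ± 0.0661 RPKM. Prx was at 0.116 ± 0.0804 RPKM and Egr2 at 0.0626 ± 0.0371 RPKM, and Pmp2 had no counts. Ranges over the 4 WT mice overlapped only for the neighbours Ncmap and Scn7a and the neighbours Prx and Egr2, so the order within these pairs does not exceed the spread between mice. In library 43, Prx was at 6.37 RPKM and Egr2 at 0.967 RPKM. In library 73, Prx was at 9.04 RPKM and Drp2 at 6.75 RPKM, whereas by CPM Prx was at 50.4 and Drp2 at 57.7.

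**Figure D1:**
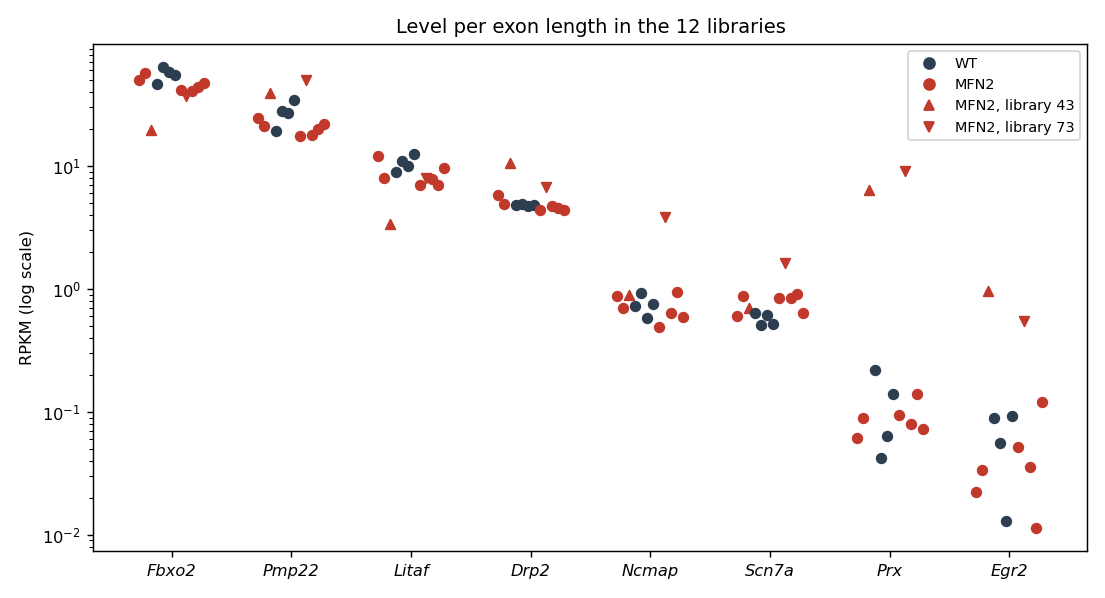
RPKM on a log axis of 8 of the 9 genes in the 12 libraries; each point is 1 library, circles are WT (dark) and MFN2 (red) mice, and triangles mark MFN2 libraries 43 (upward) and 73 (downward). Pmp2, with no counts in 11 libraries, is not drawn. Prx reaches 6.37 and 9.04 RPKM in libraries 43 and 73, while in WT mice it averages 0.116 RPKM.

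Prx, the periaxin scaffold of myelinating Schwann cells, gave the sharpest contrast between libraries. Its level was 1.22, 0.235, 0.354 and 0.783 CPM in WT libraries 44 to 47. In MFN2 mice it ranged from 0.343 to 50.4 CPM with a median of 0.512 CPM. The levels of 35.5 CPM (757 counts) in library 43 and 50.4 CPM (1005 counts) in library 73 were 29.1 and 41.2 times that of the highest other library, a WT mouse with 28 counts. The other 6 MFN2 libraries lay within the WT range of levels. Fewer Schwann cells and less RNA per cell cannot be told apart in such bulk samples, here and for every gene below.

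Egr2, the transcription factor at the head of the peripheral myelin program, was at very low counts, and its levels showed the same 2 libraries highest. It was at 0.306, 0.188, 0.0443 and 0.313 CPM in WT libraries 44 to 47, that is, 1 to 7 counts. MFN2 levels ranged from 0.0387 to 3.28 CPM with a median of 0.148 CPM. Library 43 held 70 counts and library 73 held 37, which were 8.05 and 4.55 times the highest other level. Egr2 also responds to neuronal activity, as do its relatives Egr1, Egr3 and Egr4. In library 43 these relatives were high as well, at 123 CPM for Egr1, 39.8 CPM for Egr3 and 18.8 CPM for Egr4. In library 73 they were at 19.9, 1.40 and 0.301 CPM. In the other 10 libraries Egr1 was between 13.4 and 22.2 CPM, Egr3 between 1.51 and 2.86 CPM and Egr4 between 0.104 and 0.534 CPM. The high Egr2 level of library 73 was thus accompanied by no higher level of its 3 relatives, and that of library 43 by higher levels of all 3. The part of forebrain tissue in the Egr2 level of library 43 was not tested.

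Pmp22, a tetraspan membrane protein of compact myelin whose gene dosage causes the most common demyelinating CMT, was highest in libraries 43 and 73 but well expressed in every mouse. WT libraries 44 to 47 were at 45.5, 65.8, 63.8 and 80.4 CPM. MFN2 levels ranged from 41.5 to 117 CPM with a median of 50.9 CPM. Libraries 43 and 73, at 92.9 and 117 CPM, exceeded the highest other library only 1.16 and 1.45 times. The remaining 10 libraries, in which Prx was at 1.22 CPM or less, still held 41.5 to 80.4 CPM of Pmp22. Pmp22 therefore did not report the Schwann cell transcripts alone in this tissue.

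Drp2, the dystrophin-related partner of Prx, was also highest in the same libraries, at 90.8 CPM in library 43 and 57.7 CPM in library 73. WT libraries were close together at 41.2, 42, 40.6 and 41.2 CPM. The MFN2 median was 40.9 CPM with a range from 37.4 to 90.8 CPM. Drp2 is also expressed in neurons of the brain. For Drp2, library 43 was the higher of the 2, in contrast to Prx and Pmp22, for which library 73 was.

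Ncmap, a small glycoprotein of myelin that is found at Schwann cell internodes, was high in library 73 alone. Its level there was 8.53 CPM (170 counts), 4.08 times the highest other library. Library 43 was at 1.97 CPM, and WT libraries at 1.62, 2.07, 1.28 and 1.67 CPM. The MFN2 median was 1.76 CPM, with 1.10 CPM the lowest. Library 43 thus lay within the WT range for Ncmap although it held 757 counts of Prx.

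Scn7a, an atypical sodium channel that senses extracellular sodium in glia and is found on non-myelinating Schwann cells, was likewise highest in library 73, at 11.9 CPM. The next highest library, another MFN2 mouse, was at 6.70 CPM, and library 43 at 5.11 CPM. WT libraries were at 4.71, 3.77, 4.52 and 3.81 CPM. MFN2 mice had a median of 6.19 CPM and a lowest value of 4.39 CPM, so the genotypes overlapped.

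Litaf, an endosomal membrane protein mutated in demyelinating CMT, and Fbxo2, the subunit of a ubiquitin ligase that binds N-linked glycans, showed the opposite extreme. Both were lowest in library 43, with Litaf at 17.4 CPM and Fbxo2 at 25.1 CPM. Litaf was at 45.7, 56.6, 51.3 and 63.9 CPM in WT libraries 44 to 47, and Fbxo2 at 59.8, 82.0, 75.4 and 71.3 CPM. In MFN2 mice the medians were 40.4 CPM for Litaf and 55.1 CPM for Fbxo2, and the highest values 62.4 and 73.2 CPM. In library 73, at 41.4 and 47.3 CPM, both genes were below the WT range, as they were in MFN2 libraries 72, 74 and 75. Litaf was below it in library 42 too, at 40.8 CPM. Fbxo2 is a known neuronal gene and Litaf is expressed in many cell types. Both remained well expressed in the libraries in which Prx was near 0.

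Pmp2, the fatty acid binding protein of peripheral myelin, was at 0 counts in 11 libraries and at 6 counts (0.282 CPM) in library 43. A count of 0 allows a level of up to 0.114 to 0.157 CPM in a library, taken as 3 counts and covering counting error only and holding only for reads that could be assigned. It was at 0 in library 73 too, in which Prx had 1005 counts. Since most of its exon bases are shared with Gm37389, reads from Pmp2 may not have been assigned to it, and a count of 0 here does not show that the transcript was low.

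**Figure D2:**
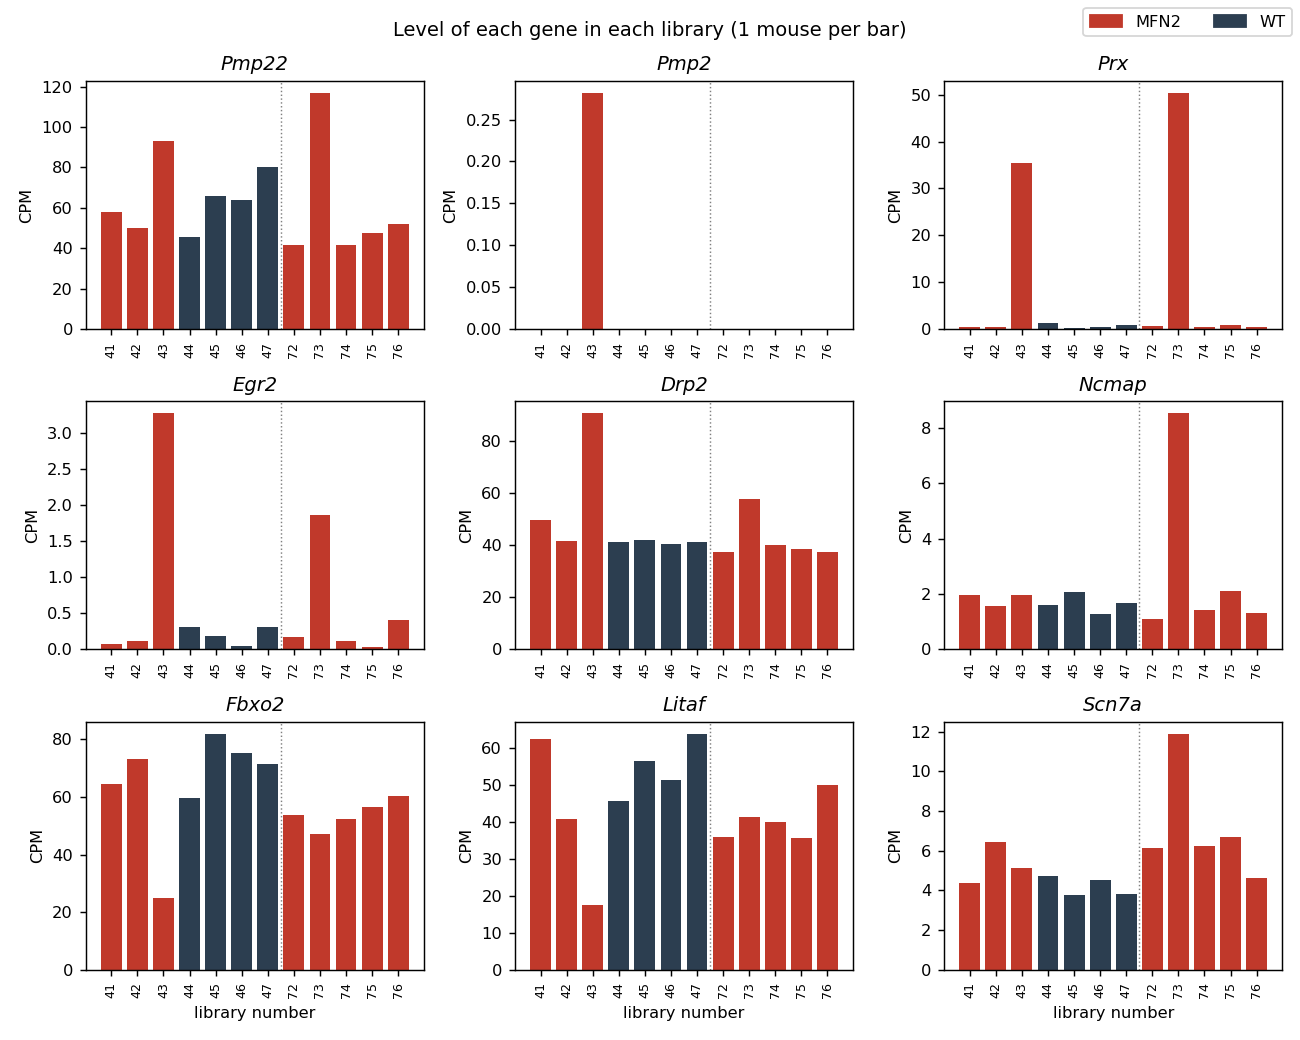
TMM-scaled CPM of the 9 genes (1 panel each, own vertical scale) in the 12 libraries, in order of library number; bars are red for MFN2 and dark for WT mice, and the dotted line separates libraries 41 to 47 from 72 to 76. Pmp22, Prx, Egr2 and Drp2 are highest in libraries 43 and 73, Ncmap and Scn7a in 73 alone, and Fbxo2 and Litaf lowest in 43.

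By the levels, then, 4 of the 9 genes (Pmp22, Prx, Egr2 and Drp2) had libraries 43 and 73 as their 2 highest. Of 15942 tested genes, 535 (3.36%) did, 3 of the 9 among them because Egr2 was below the filter. As reporters of root tissue the 9 genes were thus unlike each other. Prx and, at low counts, Egr2 were near 0 in the other 10 libraries and high in both 43 and 73. Pmp22, Drp2, Ncmap, Scn7a, Fbxo2 and Litaf were all detected in libraries with almost no Prx, and Fbxo2 and Litaf were not high in libraries 43 and 73, so the label does not hold for these 6 as markers of the roots alone. Few of the tested genes (0.0376%) were over 2 times above the highest other library in both. Among them were Prx, the adaptor gene Plekha4, Col14a1 and Dcn of the collagenous matrix, and Actn2, an actinin of muscle. Tested genes were above 1 CPM in at least 3 libraries, so a gene above 1 CPM only in libraries 43 and 73 was left out. Egr2, Cldn19, Dhh and Ogn were left out in this way, although each was over 2 times above the highest other library in both. The share therefore does not give how many of all genes mark these libraries.

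Marker lists for other cells of the roots were read in the same libraries. Of 7 other myelinating Schwann cell genes, 4 had libraries 43 and 73 as their 2 highest. The most abundant over all libraries was Itgb4, an integrin subunit that other cells also use, at 19.6 and 55.1 CPM in libraries 43 and 73 and 41.6 to 71.7 CPM elsewhere. Cldn19, a tight junction protein of Schwann cells, was at 4.93 and 5.92 CPM in libraries 43 and 73 and at most 0.703 CPM elsewhere. Dhh, the hedgehog ligand secreted by Schwann cells to pattern the nerve sheath, was at 1.27 and 1.51 CPM and at most 0.222 CPM elsewhere. Gldn, which Schwann cells deposit at nodes of Ranvier, was at 3.94 and 5.02 CPM against 1.27 to 3.02 CPM. Adgrg6, an adhesion receptor needed for peripheral myelination, was at 7.55 and 6.22 CPM against 3.19 to 11.5 CPM, and Pou3f1, a factor of promyelinating Schwann cells, at 12.4 and 7.27 CPM against 5.71 to 9.61 CPM. Cldn19, Dhh and Gldn were thus highest in both libraries, with Prx, while Itgb4, Adgrg6 and Pou3f1 were not. In contrast, the 10 genes of non-myelinating, immature and repair Schwann cells summed to 137 CPM in library 43 and 188 CPM in library 73, against 164 to 245 CPM elsewhere. Jun, which many cell types express, was the most abundant of them.

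Fibroblast genes of the nerve sheath and meninges were also raised in both libraries in part. Libraries 43 and 73 were the 2 highest for 5 of these 11 genes, yet the list summed to 386 and 424 CPM there and to as much as 503 CPM in WT library 44. Col1a1 was its most abundant gene. Col3a1, a fibrillar collagen, was at 49.4 and 66.9 CPM in libraries 43 and 73 against 9.77 to 26.8 CPM elsewhere. Ogn was at 5.16 and 6.37 CPM against at most 0.960 CPM. The 8 genes of dorsal root ganglion neurons summed to 3.28 and 3.21 CPM, within the 1.70 to 3.46 CPM of the other 10 libraries. Libraries 43 and 73 were the 2 highest for 2 of the 8, Trpv1 (5 and 4 counts) and Avil (10 and 12 counts). The most abundant gene of this list, P2rx3, averaged 1.05 CPM, and Scn10a, a sodium channel that defines nociceptors, had 8 and 0 counts. Skeletal muscle genes, 5 in the list with Acta1 the most abundant, summed to 192 CPM in library 73 and 12.7 CPM in library 43. They reached 135 CPM in WT library 47, in which Prx was at 0.783 CPM. The part of fibroblast or muscle tissue in the levels of the 9 genes was not tested.

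Central myelin followed another pattern. The 11 oligodendrocyte genes, with Mobp the most abundant, summed to 1624 CPM in library 43 and 4500 CPM in library 73, against 3875 to 5915 CPM in the other 10, and 10 of them were lowest in library 43. The 11 myelin genes that oligodendrocytes and Schwann cells share were all lowest in library 43. The higher levels of Prx, Pmp22 and Drp2 in library 43 therefore stood beside the lowest central myelin of the 12 libraries, and those in library 73 beside central myelin within the range of the others.

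**Figure D3:**
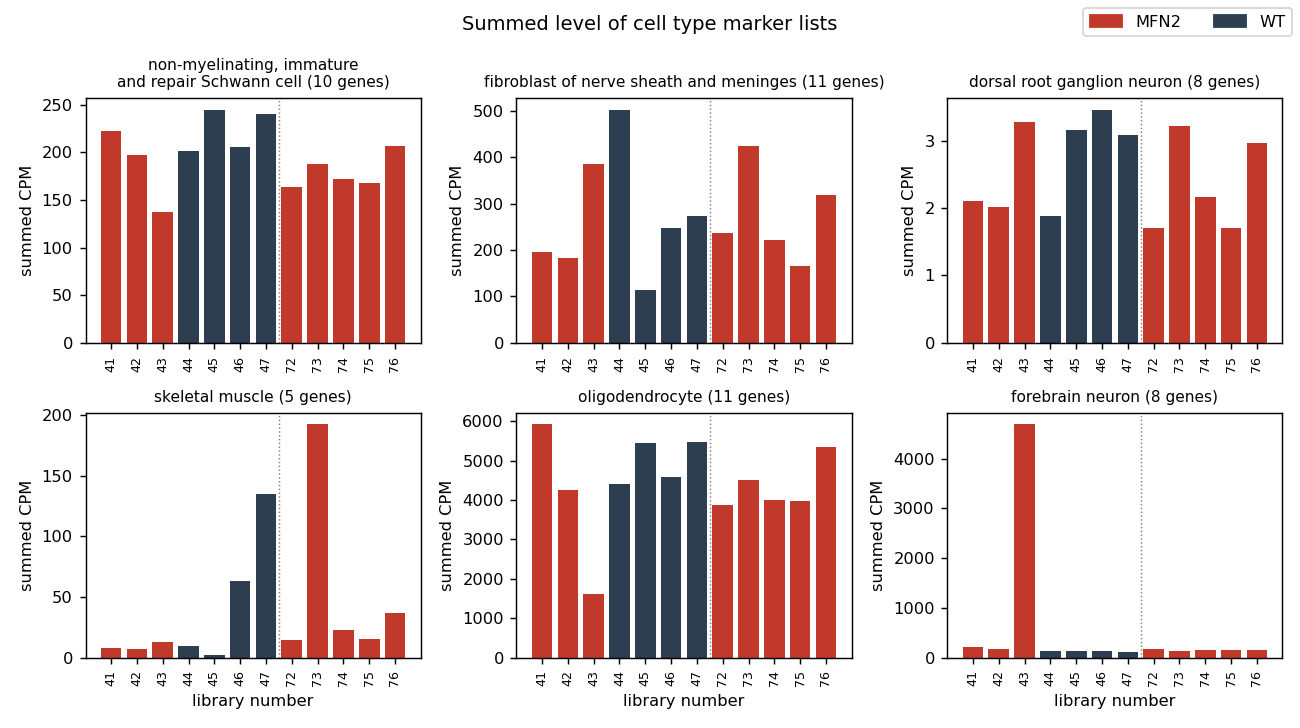
Summed TMM-scaled CPM of 6 marker lists (1 panel each, own vertical scale) in the 12 libraries, in order of library number; bars are red for MFN2 and dark for WT mice, and the dotted line separates libraries 41 to 47 from 72 to 76. Library 73 is highest for skeletal muscle, neither library for the non-myelinating Schwann cell list, and library 43 for forebrain neurons (4685 CPM) while it is lowest for oligodendrocytes (1624 CPM).

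Likeness to Prx and Pmp22 was read among the tested genes only, those above 1 CPM in at least 3 libraries. Egr2, Cldn19, Dhh and Ogn did not pass that filter and could not be ranked. Among the tested genes whose log2 CPM followed that of Prx most closely over the 12 libraries were Col14a1 (Pearson r = 0.960), Col3a1, Arhgap19, Dcn, Syne2, Lama2, Lamb1, Lum and Ranbp3l (r = 0.892). Several encode extracellular matrix, among them the collagens, the small proteoglycans Dcn and Lum, and the laminin chains of Lama2 and Lamb1. How far r depended on libraries 43 and 73 differed between these genes. Over the other 10 libraries it was 0.0363 for Lamb1 and 0.502 to 0.674 for most of them, but 0.844 for Lum and 0.897 for Col3a1. Of those named, Col3a1 alone was still among the 10 genes most like Prx. For Pmp22 they included Uaca, Cp, Abca8a, Pdlim3, Crispld2, Fam178b, Ahnak, Lpl and Chd1l (r = 0.915 to 0.852). Without libraries 43 and 73, r for these was 0.588 to 0.879 and none of those named stayed. The lists for Prx and Pmp22 had no gene in common. These are correlations over libraries that share depth and tissue composition, and no test was made of them.

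For the comparison of genotypes, 8 MFN2 against 4 WT mice, 7 of the 9 genes passed the filter of more than 1 CPM in at least 3 libraries. By the quasi-likelihood test of edgeR, 0 of the 7 reached an FDR of 0.05 (Benjamini-Hochberg). Over all genes, 0 of 15942 (0.0%) were called, with 2386 at an unadjusted p under 0.05, 0 by limma-voom and 200 (1.25%) by DESeq2, which called 0 of the 7 as well. No difference between genotypes was thus called for these genes. The study itself reported differentially expressed genes between the genotypes, using generalized linear models in edgeR at an FDR of 0.05 or less. Why its result differs from the 0 calls here was not tested. Prx and Scn7a were under 0.05 before adjustment. Prx averaged 11.1 ± 20.1 CPM (SD, n = 8) in MFN2 and 0.649 ± 0.449 CPM (n = 4) in WT mice, with a log2 fold change of 4.08 (SE 1.85, FDR 0.327). That value rests on libraries 43 and 73, without which Prx did not pass the filter. DESeq2, which replaces extreme counts, gave -0.30 for Prx. Scn7a averaged 6.45 ± 2.36 CPM in MFN2 and 4.20 ± 0.485 CPM in WT mice, with a log2 fold change of 0.61 (SE 0.238, FDR 0.289), and 0.46 (FDR 0.180) without libraries 43 and 73. In that fit 4 genes (0.0255%) were called, none of the 9 among them. With the run of numbers as a covariate, Scn7a was at 0.34 (FDR 0.547).

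Pmp22 averaged 62.5 ± 27.4 CPM in MFN2 and 63.9 ± 14.3 CPM in WT mice, with a log2 fold change of -0.033 (95% interval -0.589 to 0.523, FDR 0.964). Without libraries 43 and 73 the value was -0.40 (SE 0.138, FDR 0.185), which is also not called. Drp2 had a log2 fold change of 0.25 (FDR 0.573) that became -0.012 without them, and Ncmap had 0.58 (FDR 0.590) that became -0.071. With the run of numbers as a covariate, Drp2 was at 0.56 (FDR 0.305) and Ncmap at 0.14 (FDR 0.932). Fbxo2 was at -0.41 (FDR 0.354) and Litaf at -0.42 (FDR 0.392), and both stayed negative without the 2 libraries, at -0.26 and -0.30. The median log2 fold change of the 7 genes was 0.254, beside 0.00375 over all genes tested. Leaving out libraries 43 and 73, it was -0.167 over the 6 genes left, beside -0.00628. None of the 7 had levels that did not overlap between genotypes, as 2.04% of the tested genes did.

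Within libraries 41 to 47, 3 MFN2 mice were compared with 4 WT mice, and 6 of the 9 genes were tested. None was called, beside 1 of 15200 genes (0.00658%) of the whole table, and 1083 genes were at an unadjusted p under 0.05. Drp2 had the largest value, a log2 fold change of 0.58 (SE 0.253, FDR 0.622), which was 0.16 without library 43. Fbxo2 and Litaf were at -0.40 and -0.42 with library 43, and at -0.055 and -0.067 without it. Fbxo2 was at -0.68 without library 42 and Litaf at -0.88 without library 41. Scn7a was at 0.35 with all 7 libraries and at 0.19 without library 42, and Drp2 and Scn7a reached 0.79 and 0.48 with another library left out. None of these values was called.

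The 5 MFN2 libraries of the second run against the 4 WT libraries, which also serve as controls above, gave calls for 3 of the 6 genes tested. Over all genes 3746 of 15743 (23.8%) were called, 11.1% higher and 12.7% lower in MFN2. Scn7a rose by a log2 fold change of 0.75 (SE 0.236, FDR 0.0388). Fbxo2 fell by 0.42 (SE 0.0884, FDR 0.00638) and Litaf fell by 0.42 (SE 0.114, FDR 0.0221). Pmp22 (-0.10), Drp2 (0.032) and Ncmap (0.78) were not called. Without library 73, Scn7a was at 0.50 (FDR 0.0359), Fbxo2 at -0.37 (FDR 0.0138) and Litaf at -0.42 (FDR 0.0404), with 3163 genes (20.3%) called. Pmp22 was then at -0.48 with an FDR of 0.0584. The call of Fbxo2 was kept with any 1 of the 9 libraries left out. That of Litaf was lost without library 45 or 75, and that of Scn7a without 45, 46, 47, 74 or 75. Since all libraries of that run are MFN2, genotype and run of numbers cannot be told apart in these calls.

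The runs of numbers can be compared within the MFN2 genotype, with 5 libraries against 3. None of the 6 genes tested was called, beside 342 of 15633 genes (2.19%). Drp2 was at a log2 fold change of -0.55 (FDR 0.238), Ncmap at 0.62 (FDR 0.616), Scn7a at 0.40 (FDR 0.438), Pmp22 at -0.19, Fbxo2 at -0.021 and Litaf at 0.0017. With 1 library left out, Drp2 ranged from -0.77 to -0.12, the latter without library 43, and Scn7a from 0.15, without library 73, to 0.55. Ncmap was at -0.30 without library 73. Without library 43, Fbxo2 was called, at -0.36 (SE 0.0881, FDR 0.0213), as were 2375 genes (15.3%). Without libraries 43 and 73 it was at -0.31 (FDR 0.0311), with 1831 genes called (12%). This comparison and that of the second run with WT mice share libraries 72 to 76.

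**Figure D4:**
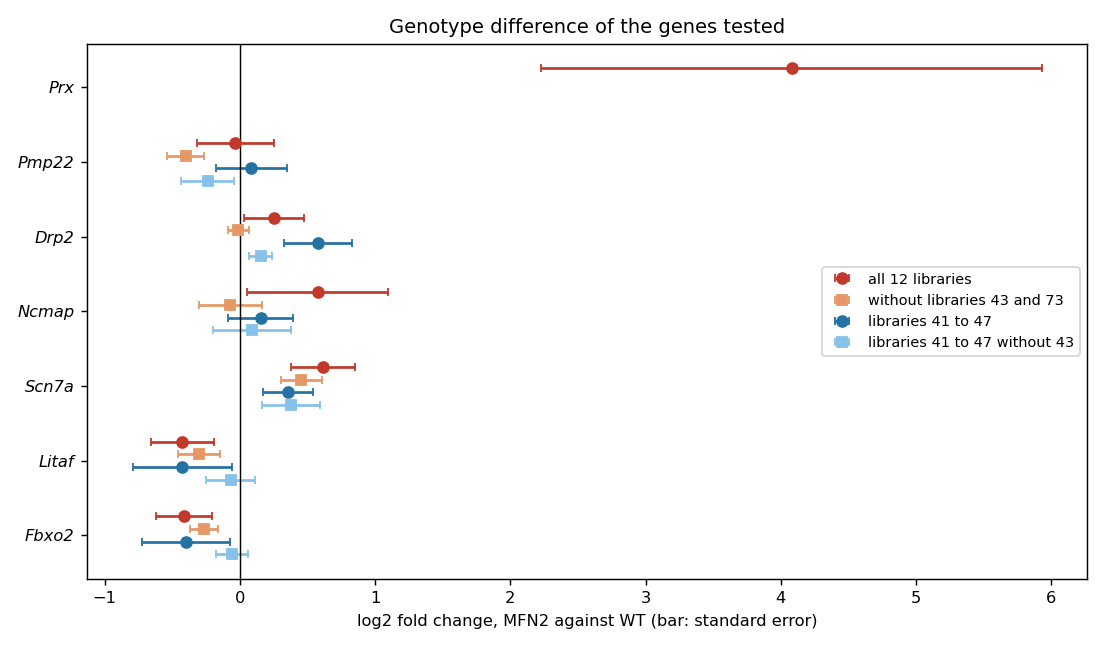
Log2 fold change of MFN2 against WT mice (horizontal axis; bars are the standard error) for the 7 genes tested, from all 12 libraries (red circles), without libraries 43 and 73 (orange squares), in libraries 41 to 47 (blue circles) and in these without 43 (light squares). Prx was tested only over all 12 libraries, at 4.08, and Pmp22 and Drp2 move to -0.40 and -0.012 without libraries 43 and 73.

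Genes that act with the 9 were read from lists of their partners. Between all MFN2 and WT mice, 0 genes of any list were called in either direction. The 13 regulators around Egr2, with the chromatin remodeller Chd4 the most abundant, had a median log2 fold change of -0.0277. The 9 tested genes of the dystroglycan complex to which Drp2 and Prx bind, with Utrn the most abundant, had a median of 0.021. Of the 10 genes in this list, 1 had libraries 43 and 73 as its 2 highest, Lama2, the laminin chain that dystroglycan binds around Schwann cells. It was at 38.9 and 33.9 CPM in libraries 43 and 73 and 16.3 to 24.2 CPM elsewhere. The 8 partners of Litaf and Fbxo2 in endosomal sorting and ubiquitin ligation, with Nedd4 the most abundant, had a median of -0.0116. The 19 tested relatives of the 9 genes, with the sodium channel gene Scn8a the most abundant, had a median of -0.0506.

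The other genes of demyelinating CMT held no call either. All 15 were tested, 6 with a positive and 9 with a negative log2 fold change and a median of -0.092, and Nefl, a neurofilament subunit made by neurons, was the most abundant. The 5 tested genes of the other myelinating Schwann cell list had a median of 0.12 and the 8 tested fibroblast genes 0.364. The 6 tested genes of the non-myelinating list had a median of -0.218, the 11 shared myelin genes -0.243 and the 11 oligodendrocyte genes -0.234, all 11 of the last being negative. The 7 tested forebrain genes had a median of 2.52, in which library 43 was the highest for every gene. The 5 muscle genes had a median of -0.26, and the only ganglion gene tested -0.374. Without libraries 43 and 73, 0 genes of the lists were called, and the medians were 0.425 for the forebrain genes, -0.186 for the oligodendrocyte genes (10 of 11 negative) and -0.131 for the shared myelin genes. The fibroblast median turned to -0.325 over 7 genes, that of the myelinating Schwann cell list to -0.0603 over 4, and that of the muscle genes was -1.36. For the non-myelinating list it was -0.13, for the 14 CMT genes still tested -0.051, and for the ganglion gene -0.454. It was -0.0857 for the regulators around Egr2, -0.0443 for the dystroglycan complex, 0.0261 for the partners of Litaf and Fbxo2 and 0.0208 for the relatives. Within MFN2 mice, 2 of 111 tested genes of the lists (1.8%) were called between the runs of numbers, beside 2.19% of all genes, so the share of the lists was no higher than that of the whole table. Sox2, a factor of immature Schwann cells and of astrocytes, and Yap1, a transcriptional co-activator that acts with Tead1 on peripheral myelin genes, both fell by 0.60, with an FDR of 0.0304 and 0.0496. Without libraries 43 and 73 they fell by 0.66 (FDR 0.00728) and 0.48 (FDR 0.0146) in a fit that called 12% of all genes, and without library 73 alone their FDR was 0.11 and 0.0919.

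In the 5 MFN2 libraries of the second run against WT, where 23.8% of all genes were called, the lists held more calls. These calls are given gene by gene, and no list was tested against that share. Among the 6 tested genes of non-myelinating, immature and repair Schwann cells, 2 fell and 0 rose, Sox2 by 0.77 (FDR 0.000543) and Jun, a driver of the Schwann cell repair state and an early response gene in many cells, by 0.38 (FDR 0.00318). Of the 5 tested myelinating Schwann cell genes, 0 were called. Among the 15 other demyelinating CMT genes 2 rose and 3 fell. Gjb1, the connexin of X-linked CMT that oligodendrocytes also make, fell by 0.79 (FDR 0.00657), Sh3tc2, an endosomal recycling protein, fell by 0.50 (FDR 0.0231), and Sbf1 fell by 0.23 (FDR 0.027). Mtmr2, a phosphoinositide phosphatase that pairs with the Sbf proteins, rose by 0.21 (FDR 0.0188), and Sbf2 rose by 0.19 (FDR 0.0368).

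Around Egr2, 1 of 13 regulators rose (the deacetylase Hdac2, 0.26, FDR 0.00407) and 2 fell, Yap1 by 0.44 (FDR 0.00209) and its relative Wwtr1 by 0.28 (FDR 0.0336). Of the 9 dystroglycan complex genes tested, 1 fell, the sarcoglycan Sgce, by 0.24 (FDR 0.0155). Of the 8 partners of Litaf and Fbxo2, 1 rose, the ubiquitin ligase scaffold Cul1, by 0.22 (FDR 0.00514). Among the 19 relatives 4 rose and 1 fell. The sodium channel genes Scn2a and Scn3a rose by 0.64 (FDR 0.0137) and 0.59 (FDR 0.0345), beside the rise of Scn7a. Egr1 rose by 0.33 (FDR 0.0323) and the fatty acid binding protein gene Fabp3 by 0.32 (FDR 0.0259), while its relative Fabp5 fell by 1.05 (FDR 0.042). Oligodendrocyte genes had 2 falls of 11, Klk6 by 1.02 (FDR 0.0456) and Hapln2 by 0.69 (FDR 0.022). Of 7 forebrain genes tested, 1 rose, Nrgn, by 0.57 (FDR 0.00548), and 0 of the 7 fibroblast, 5 muscle and 1 ganglion genes were called. Medians of the lists lay between -0.469 (the ganglion gene) and 0.293 (forebrain genes), beside -0.00066 over all genes tested. As for the 9 genes, genotype and run of numbers cannot be told apart here.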

How the data were processed

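RNA of the lumbar spinal cord was converted to libraries with a stranded SMARTer kit after poly(A) selection, and the authors trimmed the paired-end reads, aligned them to GRCm38.p6 with STAR and deposited raw counts (whole numbers) for each Ensembl gene. The counting tool and strand setting are not given in the sources used here. The 9 genes were matched by symbol in GENCODE M21 (49289 of 49548 IDs matched). Members, lists, tests and alternatives were chosen with earlier results of these data known.

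TMM-scaled counts were tested in edgeR 4.0.16 under R 4.3.3 (legacy quasi-likelihood test, robust option) for genes above 1 CPM in at least 3 libraries, at an FDR of 0.05. All genes were fitted together. The test was checked on simulated counts with the same dispersion (0.05) for every gene and 200 genes changed by a log2 fold change of 1. It recovered 92.5% of these with all 12 libraries, 59% within libraries 41 to 47 and 69.5% between the MFN2 runs. No simulated library stood apart as 43 and 73 do, so the check does not show how many such changes would be found in these data. Log2 CPM used a prior count of 2. Standard errors were derived from the F statistic. DESeq2 1.42.0, limma 3.58.1, other filters and scalings, and each library left out were alternatives, and leaving out libraries 43 and 73 together, or each library from the 5 second-run MFN2 libraries against WT, was added after the data were seen. Named were all 9 genes, genes of the other lists past the FDR, the most abundant gene of each list, and the 10 genes most like Prx and Pmp22. Cldn19, Dhh, Gldn, Col3a1, Ogn, Hoxc10, Chat, Scn10a, Lama2, Adgrg6, Pou3f1, Egr1, Egr3, Egr4 and the genes over 2 times above all others were named after their values were seen. Total counts of 19359454 to 26738930 per library limit the precision of Egr2, Pmp2 and Prx, which rest on few counts in most libraries. Some genes that these rules name are not reported here.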

Additional observations from a re-analysis of the deposited data

Results flagged for a closer look

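Each value was set against the other mice of its genotype, and 10 of 43 groups had a highest or lowest library whose gap to its nearest neighbour, as a share of the whole range, was above Dixon's 95% critical value. Chance gives about 1 in 20, or 2.15 here. Of the 10, 6 lay in library 43, 3 in library 73 and 1 elsewhere. Among the 9 genes, the share was 1.0 for Pmp2 (library 43, 0.282 CPM, all other MFN2 mice at 0). With the others at 0 any count gives that share, so no conclusion is drawn from the flag of Pmp2. The share was 0.619 for Drp2 (library 43, 90.8 CPM), 0.866 for Ncmap (library 73, 8.53 CPM) and 0.692 for Scn7a (library 73, 11.9 CPM). Prx, Egr2 and Pmp22 did not exceed the value, because 2 libraries were high together.

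Among the summed lists, the share was 0.985 for forebrain neurons (highest in library 43) and 0.841 for skeletal muscle (highest in library 73). It was 0.674 for the other demyelinating CMT genes and 0.62 for the partners of Litaf and Fbxo2, both lowest in library 43. For the relatives of the 9 genes it was 0.699, highest in library 43. In WT mice it was 0.872 for the dystroglycan complex, lowest in library 46 at 637 CPM. The causes were not tested.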

How the results depend on the processing

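Between all MFN2 and WT mice, 0 genes were called, beside 200 by DESeq2, 3746 (3 of the 9 genes among them) with MFN2 libraries 72 to 76 alone, and 4 without libraries 43 and 73. Leaving out 1 library gave 0 to 19, with 19 without library 43 and 7 without library 41, and 0 of the 9 genes each time. In libraries 41 to 47 the 1 call became 0 with no filter or limma-voom, 5 by DESeq2 and 0 to 2 with 1 library left out. Between the MFN2 runs the 342 calls (157 higher, 185 lower) became 1795 by DESeq2 and 1831, with 1 of the 9 genes, without libraries 43 and 73. They ranged from 31 (without 74) to 2375 (without 43) with 1 library left out, and the 9 genes from 0 to 1 calls. The split became 259 higher and 113 lower by upper-quartile scaling and 281 and 105 by library size. For MFN2 libraries 72 to 76 against WT, calls ranged from 2350 (without 45) to 4517 (without 44), and the 9 genes from 1 to 3 calls, with 1 library left out.

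Signs of log2 fold changes reversed as follows. Between genotypes Pmp22 was 0.0173 by library size and 0.0647 with the run of numbers as covariate, and -0.215 to 0.0962 with 1 library left out. Prx was -0.299 and Ncmap -0.00586 by DESeq2. Without libraries 43 and 73 Drp2 was -0.0123 and Ncmap -0.0714, and Ncmap ranged from -0.0173 to 0.7 with 1 left out. In libraries 41 to 47, Pmp22 ranged from -0.237 to 0.255. Between the MFN2 runs without libraries 43 and 73, Ncmap was -0.242 and Litaf -0.361. Fbxo2 was 0.025 by upper-quartile scaling, 0.0366 by library size and 0.1 by limma-voom, and Litaf -0.00875 with no filter and -0.0114 with filterByExpr. With 1 library left out, Pmp22 ranged from -0.557 to 0.138, Ncmap from -0.302 to 0.833, Fbxo2 from -0.36 to 0.252 and Litaf from -0.357 to 0.469. For libraries 72 to 76 against WT, Pmp22 ranged from -0.48 to 0.0304, Drp2 from -0.0959 to 0.0788 and Ncmap from -0.151 to 0.993. The causes were not tested. No paired analysis was made, because the sample labels name no litter or other pairing of the mice.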
